A study of Mus musculus with 816 samples.

Results

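P3C is a synthetic triacylated lipopeptide, built after the lipid-anchored end of bacterial lipoproteins and sold as a ligand of the receptor TLR2. The results below describe the 6 cultures of mouse microglia that received P3C alone at 0.001 ug/ul and were harvested after 72 h. They were found by their treatment and duration labels among the 784 cultures of a series of 816 samples. The cells were commercial primary microglia from newborn mice, grown in 96-well plates and given medium with or without a stimulus several days after plating. The comparison group was the 25 untreated cultures (None) harvested at 72 h. For reference, the 6 cultures given the same dose of P3C for 24 h, the 40 untreated cultures of 24 h and the 13 cultures given the higher dose of lipopolysaccharide, 0.0001 ug/ul (LPS_hi), for 72 h were used. Sex and strain were not given in the sources used here, and every culture came from a bought cell lot, so that the number of donor animals behind each group was not known.

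TLR2 recognises triacylated lipopeptides as a pair with TLR1 and diacylated ones as a pair with TLR6, with CD14 handing over the ligand. The adaptor MyD88 then starts the signal that frees NF-kB from its inhibitor and switches on cytokines, chemokines and a set of feedback inhibitors that damp the same pathway. TLR2 on macrophages and microglia signals mainly through MyD88, whereas TLR4, the lipopolysaccharide receptor, also uses the adaptor TRIF, which leads to type I interferon.

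All 6 P3C cultures came from middle wells: replicates 1 to 4 from one plate (called here the first plate) and replicates 5 and 6 from another (the second plate). The 10 untreated cultures of the first plate were also middle wells and shared its 2 library pools with P3C, whereas the other 15 untreated cultures, on 3 plates, were edge or corner wells. Well position and plate therefore cannot be told apart among the untreated cultures of 72 h. On the second plate, P3C and untreated cultures differed in well position and in library pool, so that these cannot be told apart from the treatment there. Depth was 5.13 to 7.08 M reads for the P3C cultures and 1.45 to 14.4 M for the untreated ones. Genes above 5 CPM (reads of a gene scaled to one fixed total of mapped reads per culture) numbered 7936 to 8841 with P3C, 8846 to 9242 in untreated middle wells and 7221 to 8593 in untreated edge or corner wells. Pearson's r between 2 P3C cultures, across genes on the log2 scale, ran from 0.74, for the pair on the second plate, to 0.954, and no 2 held identical values. 1 untreated middle-well culture stood apart with 1538 CPM of the interferon target Ifit3, against a median of 77.4 CPM over all 25. The labelled cell type was checked against its markers: in the P3C cultures Csf1r lay at 578 to 1600.0 CPM, Tyrobp at 468 to 728 CPM and Fcrls at 593 to 1482 CPM, whereas P2ry12, the purinergic receptor of resting microglia, lay at 0 to 0.316 CPM, Tmem119 at 2.05 to 6.98 CPM and the transcription factor Sall1 at 0 to 3.95 CPM. P2ry12 was also low without treatment, at 0 to 7.93 CPM.

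Of 10943 genes tested, 586 (5.36%) were higher and 365 (3.34%) lower with P3C at 72 h, by limma on log2(CPM + 1) with a Benjamini-Hochberg adjusted p under 0.05 and a log2 difference of at least 1. In 206 genes (1.88%) every P3C culture lay above every untreated culture, and in 59 (0.539%) every P3C culture lay below. The number of falls depended on the wells compared: with culture plate as a term the counts were 612 and 630, and with the 6 P3C cultures set against the 10 untreated middle wells alone they were 614 of 10029 genes (6.12%) and 1458 (14.5%). Log2 differences below are P3C minus None over all 25 untreated cultures, with the standard error and adjusted p of limma, unless a sentence names the middle wells. Comparisons with the middle wells set all 6 P3C cultures, of both plates, against untreated cultures of the first plate alone. The study calls its cultures biological replicates, but all of these 72 h cultures came from a single bought cell lot. The p-values thus measure the spread between wells of that lot, with differences between plates and well positions included. The wells were treated as independent, although several shared a plate. The comparison with 24 h takes in further lots.

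By the naming rule given under data processing, the largest rise was that of Lox, lysyl oxidase, the enzyme that crosslinks collagen and elastin. Lox measured 352, 407, 381, 362, 869 and 588 CPM in P3C replicates 1 to 6, against 0 to 14.3 CPM without treatment (median 0.250), a log2 difference of 8.09 ± 0.45, adjusted p = 3.2e-16. Every P3C culture was above every untreated one, and both second-plate cultures were above the 4 of the first. Slc13a3 (chromosome 2: 165405028 to 165473230 in GRCm38), a sodium-coupled transporter of dicarboxylates such as succinate, measured 498, 327, 387, 357, 747 and 668 CPM against 0 to 9.90 CPM (median 1.48), a log2 difference of 7.42 ± 0.53, adjusted p = 3.5e-13. The acute-phase gene Saa3, serum amyloid A3 (chromosome 7: 46711998 to 46715700), reached 8324, 7034, 8212, 10613, 8093 and 6595 CPM with P3C and 14.8 to 558 CPM without (median 91.9), a log2 difference of 6.79 ± 0.59, adjusted p = 4.3e-11. The 6 cultures were within 1 log2 unit of each other for Saa3, and the untreated middle wells, at 147 to 558 CPM, were above most edge wells but far below P3C.

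The next rises by the same rule took in an actin-bundling protein, iron and siderophore binders and a vasodilator peptide. Fscn1, which bundles actin in motile cell processes, lay at 83.2 to 257 CPM with P3C and 0 to 11.4 CPM without (6.34 ± 0.53, adjusted p = 1.9e-11). Cp, ceruloplasmin, a copper-carrying ferroxidase, lay at 313 to 628 against 0.146 to 28.4 CPM (6.22 ± 0.58, adjusted p = 2.1e-10), and Lcn2, lipocalin 2, which binds bacterial siderophores, at 354 to 724 against 2.87 to 62.8 CPM (5.60 ± 0.47, adjusted p = 1.7e-11). Ndrg1, a stress-induced cytoplasmic protein, was at 177 to 575 against 0 to 35.4 CPM (6.14 ± 0.57, adjusted p = 2.1e-10), with both second-plate cultures the lowest of the 6. Adm, the peptide adrenomedullin, was at 63.8 to 109 against 0 to 6.15 CPM (5.92 ± 0.37, adjusted p = 1.2e-14). The kinase gene Pim2, the RNA-binding protein gene Raver2 and the C-type lectin receptor gene Clec4a1 had log2 differences of 5.77, 5.66 and 5.34. Ptgs2, the inducible cyclooxygenase of prostaglandin synthesis, split by plate: 17.3, 35.3, 24.8 and 30.2 CPM on the first plate and 232 and 219 on the second, all above the untreated range of 0 to 14.2 CPM (5.26 ± 0.46, adjusted p = 5.8e-11).

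By the same rule the largest fall was that of Mmp12, macrophage elastase (chromosome 9: 7344381 to 7369499). Mmp12 measured 17.1, 33.3, 12.3, 32.3, 14.9 and 15.6 CPM with P3C against 179 to 961 CPM without (median 312), a log2 difference of -4.18 ± 0.32, adjusted p = 1.8e-12. The highest P3C culture lay below the lowest untreated one, and the plates did not separate. Trem2, the lipid-sensing receptor on which the disease-associated microglial state depends (chromosome 17: 48346401 to 48354147), measured 79.6, 90.4, 54.8, 98.2, 64 and 59.4 CPM against 473 to 939 CPM (median 689; -3.22 ± 0.15, adjusted p = 1e-17). Edge and middle wells without treatment hardly differed for Trem2 (log2 difference 0.02), and the P3C difference was -3.09 within the first plate and -3.26 within the second. The other 10 of the 12 largest falls were Emp1, Cd83, Htr2b, Bmf, Rgs1, S1pr1, Trf, Pald1, Rgs2 and Cyp27a1, with log2 differences from -3.84 (Emp1) to -3.17 (Cyp27a1). Htr2b is a serotonin receptor (0 to 6.83 CPM with P3C, 16.8 to 97.2 CPM without), S1pr1 a sphingosine 1-phosphate receptor (0.621 to 22.2 against 54.7 to 154 CPM), and Rgs1 and Rgs2 are activators of G-protein GTPase. Trf, transferrin, the iron carrier, was at 27.3 to 66.7 CPM with P3C and 277 to 788 CPM without, and Cyp27a1, the mitochondrial sterol hydroxylase, at 0 to 3.95 and 6.19 to 59.8 CPM. Cd83, a surface immunoglobulin protein of activated antigen-presenting cells, was at 0 to 5.01 CPM with P3C and 8.82 to 79.2 CPM without. Bmf, a BH3-only protein of the BCL2 family, was lower in most untreated middle wells (4.66 to 11.1 CPM) than in edge wells (5.20 to 54 CPM) and lower still with P3C (0 to 0.974 CPM).

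**Figure D1:**
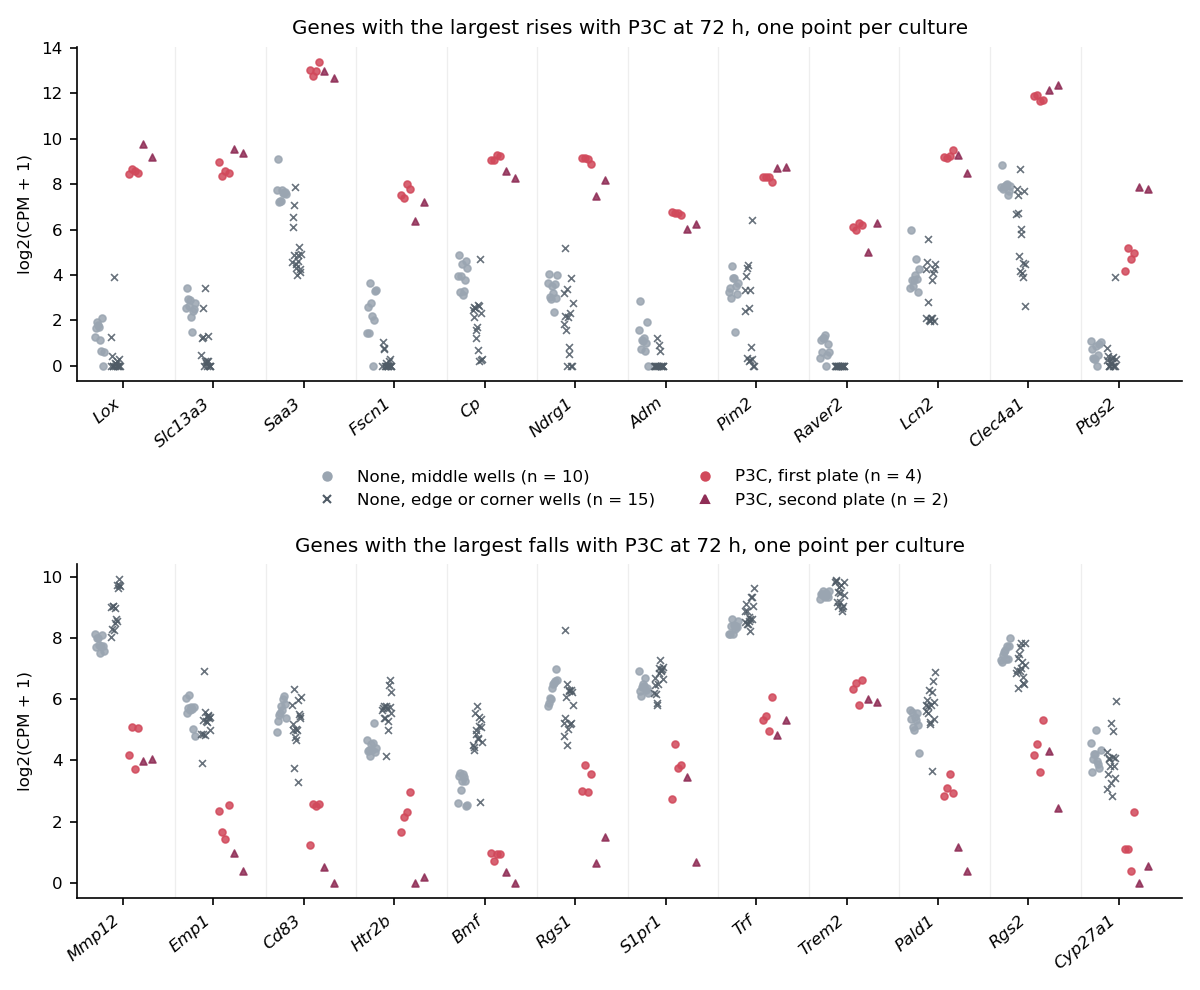
Level of the 12 genes with the largest rises (top) and the 12 with the largest falls (bottom) at 72 h, as log2(CPM + 1), with one point for each of the 6 P3C and 25 untreated cultures, marked by plate or well position. P3C points do not overlap the untreated ones, which the rule for these 24 genes required, and the second-plate P3C points of Ptgs2 lie above those of the first plate.

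Of the receptors and adaptors for the ligand, 3 of 18 tested genes of the TLR2 recognition and signalling list rose and 1 fell, with a median log2 difference of 0.31 (all genes tested, 0.05). Tlr1, the partner of TLR2 for triacylated ligands, measured 52.8, 39.1, 54.7, 50.3, 59 and 49 CPM with P3C and 0 to 27.2 CPM without (3.15 ± 0.77, adjusted p = 0.0043). Untreated middle wells held 17.5 to 27.2 CPM of Tlr1 and edge wells 0 to 15.8, and the middle-well difference was 1.12, adjusted p = 2e-05. Tlr2 itself stood at 41.3, 45.5, 47.7, 38, 86.3 and 55.2 CPM against 0 to 42.4 CPM (1.51 ± 0.50, adjusted p = 0.042), and its call was lost with plate as a term (adjusted p = 0.12) and on leaving out any 1 of the 6 P3C cultures. Cd14 stood at 70.7 to 177 CPM against 7.65 to 211 CPM (1.41 ± 0.43, adjusted p = 0.026); its call was lost without replicate 1, 3 or 4 and against the middle wells (0.74). Cd36, a scavenger receptor that assists TLR2, fell (392 to 620.1 against 527 to 3258 CPM, log2 difference -1.42 ± 0.33, adjusted p = 0.0027) but by only -0.67 against the middle wells, and Tlr6 (-0.36, adjusted p = 0.81) and Myd88 (0.41, adjusted p = 0.61) did not pass. Among receptors outside this list, Tlr13, an endosomal sensor of bacterial ribosomal RNA, fell (20.6 to 74.4 CPM with P3C, 88.1 to 1223 without, log2 difference -2.41 ± 0.33, adjusted p = 8.7e-07), and Tlr4 did not pass (0.23, adjusted p = 0.84).

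The feedback inhibitors of TLR and NF-kB signalling rose in 9 of 20 tested genes with none lower, and with a median log2 difference of 0.89; against the middle wells 9 of 19 rose and 2 fell. Nfkbia encodes the inhibitor that holds NF-kB in the cytoplasm and is itself a target of NF-kB, and Cxcl2 encodes a neutrophil-attracting chemokine with the same control; their upstream sequences are shown because both genes rose and carry the kappaB consensus, the DNA motif that NF-kB binds, in capitals. The sequences are the annotated bases upstream of the start site, read 5′ to 3′ on the gene's strand from RefSeq on GRCm38.p6, at chr12:55492648-55492897 (minus strand) and chr5:90903649-90903870 (plus strand). For Cxcl2 the 28 bases next to the RefSeq start site were left out, because they lie inside the GENCODE gene.
Nfkbia: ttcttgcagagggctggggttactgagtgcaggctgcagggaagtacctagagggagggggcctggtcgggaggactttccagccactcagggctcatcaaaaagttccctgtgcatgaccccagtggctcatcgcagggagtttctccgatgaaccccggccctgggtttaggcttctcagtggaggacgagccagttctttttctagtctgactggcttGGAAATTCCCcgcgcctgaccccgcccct
Cxcl2: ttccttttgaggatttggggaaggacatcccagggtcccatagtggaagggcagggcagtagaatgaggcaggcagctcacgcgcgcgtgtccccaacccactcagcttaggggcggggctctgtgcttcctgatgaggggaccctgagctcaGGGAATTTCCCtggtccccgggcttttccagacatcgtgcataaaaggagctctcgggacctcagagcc
On both strands, the consensus was in the 250-base upstream window of 7 of 19 feedback inhibitors with a window (36.8%), 56 of 426 genes that rose (13.1%), 32 of 287 that fell (11.1%), 830 of 7920 tested genes (10.5%) and 2225 of all 27025 genes with a window (8.23%). In Cxcl2 a pair of matches overlap in the capitals. Among the feedback inhibitors that rose, Nfkbia and Tnip3 held a match, whereas Irak3, Socs3 and Bcl3 held none. Tnfaip3, which did not pass the test, held a match.

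Nfkbia itself measured 491, 466, 451, 422, 249.6 and 295 CPM with P3C and 31 to 198 CPM without (1.89 ± 0.25, adjusted p = 5.2e-07), with the second-plate cultures the lowest of the 6 and no overlap. Nfkbiz, a nuclear co-activator and inhibitor of the same family that is needed for secondary response genes, measured 81.6, 93.5, 85.1, 88.4, 204 and 147 CPM against 0 to 10.8 CPM (5.24 ± 0.52, adjusted p = 1e-09), with the second plate the higher. Socs3, the inhibitor of cytokine receptor signalling, was at 48.2 to 116 against 0 to 18 CPM (4.69 ± 0.52, adjusted p = 1.2e-08), and Irak3, the kinase-dead member of the IRAK family that blocks signalling from MyD88, at 58.6 to 169 against 0.132 to 25.5 CPM (3.71 ± 0.51, adjusted p = 1.1e-06). Bcl3, which acts with NF-kB p50 dimers in the nucleus, and Tnip3, an A20-binding inhibitor, had log2 differences of 2.94 ± 0.32, adjusted p = 9.3e-09, and 3.65 ± 0.46, adjusted p = 1.9e-07. Neither Tnfaip3, which encodes A20 itself (0.41, adjusted p = 0.72), nor Zfp36, the RNA-binding protein that shortens cytokine messages (-0.21, adjusted p = 0.83), passed; against middle wells Zfp36 was -1.05, adjusted p = 0.003. Of the 5 NF-kB subunits only Nfkb2 passed (1.60 ± 0.50, adjusted p = 0.032), and it did not with any 1 P3C culture left out. With plate as a term it was Relb that passed (1.38, adjusted p = 0.027) and not Nfkb2 (1.31, adjusted p = 0.053). Nfkb1 was at 0.03 and Rela at -0.27.

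Tnf, tumour necrosis factor, was the inflammatory cytokine with the largest difference: 1099, 1088, 1188, 1214, 998 and 797 CPM against 0.209 to 123 CPM (median 52.6), a log2 difference of 5.05 ± 0.62, adjusted p = 1.2e-07. Every P3C culture was above every untreated one, and the difference from the middle wells, whose untreated level was the higher, was 3.85, adjusted p = 6.8e-13. The interleukins were much lower in level. Il1a measured 57.4, 45.7, 36.1, 38.6, 27.5 and 18.9 CPM (0 to 75.1 untreated, log2 difference 2.26 ± 0.58, adjusted p = 0.0063) and Il1b 14.4, 12.8, 22.2, 17.3, 20.6 and 3.10 CPM (0 to 10.4 untreated, log2 difference 2.16 ± 0.52, adjusted p = 0.0037), and both overlapped the untreated range. 4 of the 9 inflammatory cytokines tested rose, and none fell, beside 5.36% and 3.34% of all genes. Against the middle wells 4 of 9 rose and 2 fell, and with plate as a term 4 rose and 1 fell. Among the antagonists and anti-inflammatory cytokines 3 of 8 rose. Il10, which restrains macrophage activation, measured 51.8, 42.6, 32, 44.5, 6.92 and 69.2 CPM with P3C and was listed at 0 in 16 of the 25 untreated cultures (highest 3.56; 4.79 ± 0.37, adjusted p = 1.9e-12). Il1rn, the IL-1 receptor antagonist, measured 31.2, 25.2, 34.7, 25.8, 6.99 and 46.2 CPM against 0 to 17.3 CPM (3.29 ± 0.55, adjusted p = 3.5e-05). Replicate 5 was the lowest of the 6 for both. Ebi3, a subunit of IL-27 and IL-35 counted among the inflammatory cytokines, was at 174 to 321 against 1.20 to 177 CPM (1.94 ± 0.53, adjusted p = 0.011).

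7 of the 9 CC chemokines tested rose, with a median log2 difference of 2.39. These attract monocytes and T cells and act through CC chemokine receptors. Ccl3 was at 757, 542, 597, 584, 459.8 and 573 CPM against 3.20 to 134 CPM (4.08 ± 0.56, adjusted p = 1.1e-06), and Ccl5 at 981, 947, 760.3, 994, 1669 and 1088 against 12.7 to 753 CPM (3.04 ± 0.61, adjusted p = 0.00045). For Ccl5 the lowest P3C culture, at 760.3 CPM, lay just above the highest untreated one, at 753 CPM. Neither gene overlapped the untreated range. Ccl4 (802 to 1469.9 against 20.5 to 923 CPM, log2 difference 2.59 ± 0.65, adjusted p = 0.0054) and Ccl2 (157, 136, 163, 165, 27 and 28.9 against 0 to 46.2 CPM, log2 difference 3.80 ± 0.69, adjusted p = 0.0001) overlapped it, and for Ccl2 both second-plate cultures lay well below the first-plate 4. Untreated middle wells held more of these messages than edge wells: the middle-well log2 differences were 2.62 for Ccl3, 1.81 for Ccl5, 0.84 for Ccl4 and 2.45 for Ccl2, and 3 of 8 CC chemokines rose there. Among 6 CXC chemokines 1 fell, Cxcl14 (-2.28), and 1 rose, Cxcl2, at 130.1, 117, 140.0, 145, 166 and 189 CPM against 0 to 14.5 CPM (5.04 ± 0.51, adjusted p = 1.5e-09). Cxcl10, an interferon-induced chemokine, lay at 1.27 to 7.89 CPM with P3C and did not pass (0.98, adjusted p = 0.34).

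Surface receptors moved in both directions. The scavenger receptor Marco, which binds bacteria and particles, was the 1 riser of 10 scavenger receptors, at 1122, 1107, 1299, 1164, 1119 and 985 CPM against 4.45 to 86 CPM (5.20 ± 0.40, adjusted p = 1.8e-12), and 4 fell. Among 10 C-type lectins 4 rose and 2 fell. Clec4e (Mincle), a receptor for mycobacterial glycolipid, was at 113 to 236 against 0.0797 to 32.6 CPM (4.85 ± 0.60, adjusted p = 1.1e-07), and Clec4a2 at 491 to 964 against 0 to 81.6 CPM (4.86 ± 0.65, adjusted p = 6.1e-07). Clec7a (Dectin-1), the receptor for fungal beta-glucan, fell (21.5 to 106 CPM with P3C, 115 to 604 without, log2 difference -3.01 ± 0.29, adjusted p = 4e-10), and Mrc1, the mannose receptor, measured 1.41 to 12.8 CPM against 5.49 to 236 CPM (-3.11 ± 0.64, adjusted p = 0.00059). Clec4d, the neighbour and partner of Clec4e, did not pass (-0.53, adjusted p = 0.36). Of 17 adhesion and antigen-presenting surface proteins, 10 rose and 1, Cd83, fell. The integrin chain Itgal of LFA-1 rose (903 to 1556 against 57.8 to 338 CPM, log2 difference 2.67 ± 0.24, adjusted p = 1.2e-10) together with its ligand Icam1 (70.9 to 111 against 0 to 48.3 CPM, log2 difference 2.46 ± 0.58, adjusted p = 0.0032). The checkpoint ligand Cd274 (PD-L1) was at 25.1 to 94.8 against 0.559 to 24.6 CPM (3.70 ± 0.41, adjusted p = 9.7e-09), the NAD-consuming surface enzyme Cd38 at 16.5 to 65.5 against 0 to 7.75 CPM (3.80 ± 0.46, adjusted p = 7.5e-08), and Slamf9 at 71.6 to 88 against 0 to 18.8 CPM (3.93 ± 0.50, adjusted p = 2.7e-07).

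**Figure D2:**
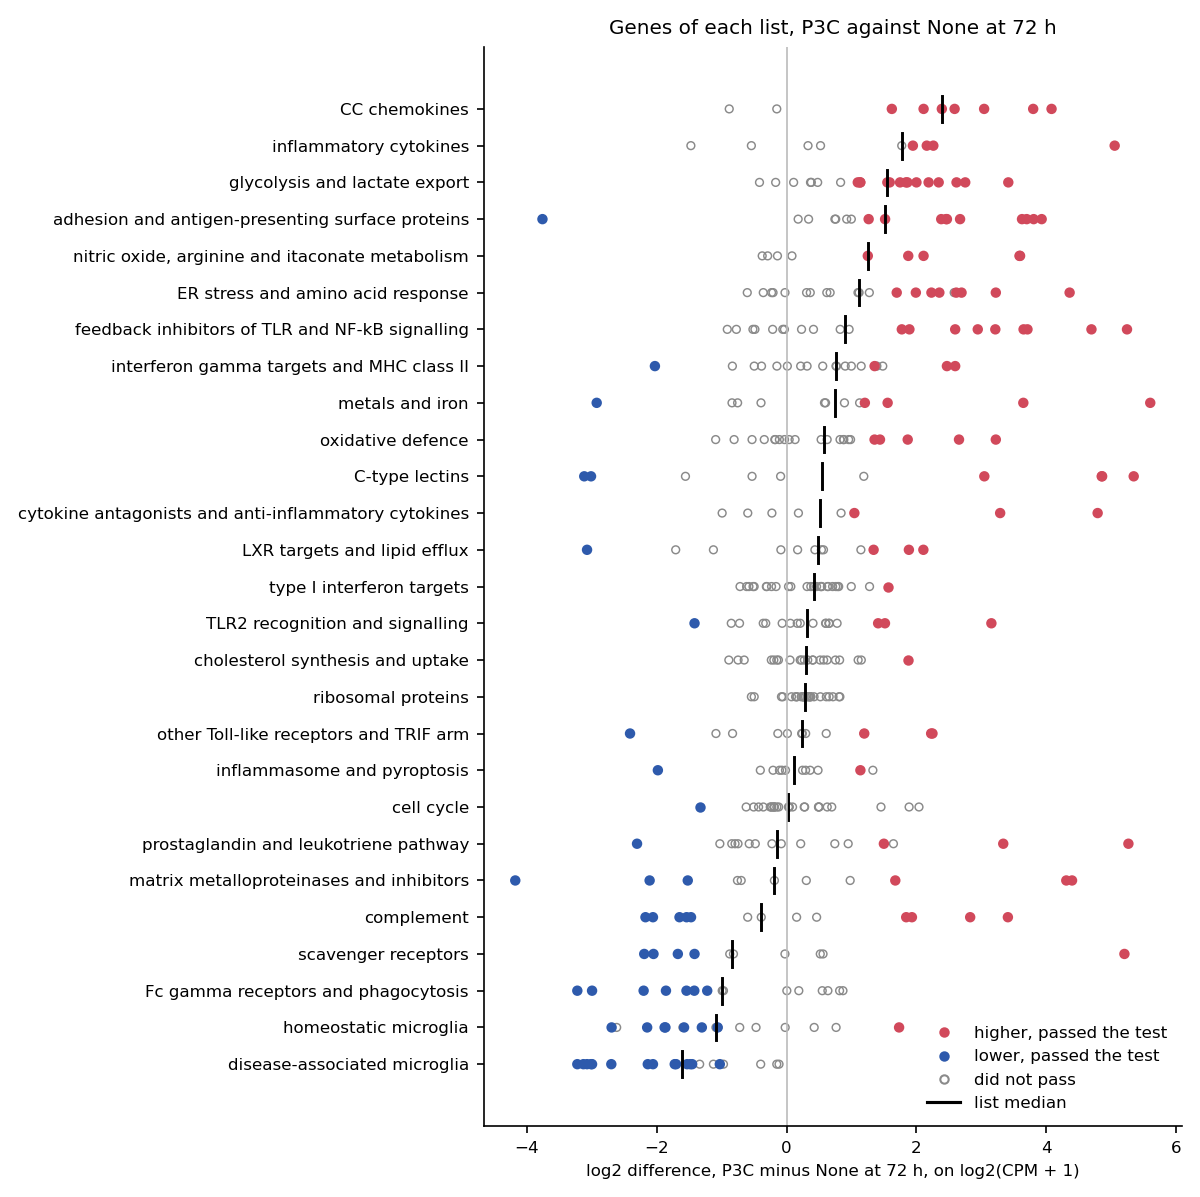
Log2 difference (P3C minus None at 72 h) of every tested gene in the lists with at least 8 tested genes, with genes that passed the test filled (red higher, blue lower), others open, and the list median as a bar. Lists are ordered by their median, from CC chemokines (2.39) at the top to disease-associated microglia (-1.62) at the bottom.

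Glucose uptake, glycolysis and lactate export rose as a list: 14 of 21 tested genes were higher and none lower, with a median log2 difference of 1.55, and against the middle wells 14 rose and 1 fell (median 1.55). The risers ran from the entry of glucose to the export of lactate. Slc2a1, the glucose transporter GLUT1, measured 105, 89.3, 90.6, 108, 95.2 and 76.6 CPM with P3C and 0.689 to 23.8 CPM without (3.41 ± 0.38, adjusted p = 1.4e-08). Hexokinase Hk2, which traps glucose in the cell, measured 65, 62, 75.6, 75.5, 105 and 66.9 CPM against 0 to 39 CPM (2.75 ± 0.60, adjusted p = 0.0013). Neither overlapped the untreated range. Pfkfb3, which makes the activator of phosphofructokinase, was at 338 to 469 against 8.26 to 171 CPM (2.19 ± 0.37, adjusted p = 3.6e-05), and aldolase Aldoa at 2381 to 4146 against 671 to 1771 CPM (1.75 ± 0.18, adjusted p = 1.3e-09). Lactate dehydrogenase Ldha (chromosome 7: 46841475 to 46855627), which turns pyruvate into lactate, measured 1162, 1035, 1081, 1133, 455 and 397 CPM against 80.7 to 259 CPM (2.34 ± 0.25, adjusted p = 7.6e-09), and the lactate exporter Slc16a3 (MCT4) 32.1 to 55.2 against 1.06 to 38 CPM (2.62 ± 0.40, adjusted p = 6.7e-06). For Aldoa, Ldha, Gapdh, Pgk1, Pgam1 and Pkm the second-plate cultures lay below the first-plate ones. Gapdh measured 6058, 5346, 5957, 6425, 1658 and 1292 CPM against 362 to 2603 CPM (1.84 ± 0.44, adjusted p = 0.0033), and within plates its difference was 1.68 on the first and 1.67 on the second. Pkm, pyruvate kinase, already at 2205 to 8360.4 CPM without treatment, reached 5464 to 9919 CPM (1.14 ± 0.21, adjusted p = 0.00016). Hif1a, the oxygen-regulated transcription factor of many of these genes, was at 195 to 225 against 38.6 to 304 CPM and its difference, 0.83, adjusted p = 0.023, was under the minimum of 1.

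Pgk1, phosphoglycerate kinase, and Pgam1, phosphoglycerate mutase, catalyse successive steps of glycolysis; their upstream sequences are shown because both genes rose and hold ACGTG, the core that hypoxia-inducible factors bind, in capitals (CACGT is the same core on the other strand). They lie upstream of the RefSeq start site on GRCm38.p6 at chrX:106186850-106187099 (plus strand) and chr19:41911621-41911870 (plus strand).
Pgk1: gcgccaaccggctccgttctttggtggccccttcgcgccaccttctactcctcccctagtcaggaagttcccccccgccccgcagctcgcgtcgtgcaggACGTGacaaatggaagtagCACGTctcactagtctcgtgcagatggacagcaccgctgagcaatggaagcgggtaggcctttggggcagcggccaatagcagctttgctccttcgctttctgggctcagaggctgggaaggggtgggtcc
Pgam1: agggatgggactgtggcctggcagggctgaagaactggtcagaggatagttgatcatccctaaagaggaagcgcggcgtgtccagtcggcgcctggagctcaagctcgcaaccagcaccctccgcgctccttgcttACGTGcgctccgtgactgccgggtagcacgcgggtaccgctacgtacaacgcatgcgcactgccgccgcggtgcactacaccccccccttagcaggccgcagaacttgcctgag
On both strands, ACGTG was in the 250-base window of 13 of 20 genes of the glycolysis list with a window (65.0%), 3 of 19 feedback inhibitors (15.8%), 115 of 426 genes that rose (27%), 57 of 287 that fell (19.9%), 2062 of 7920 tested genes (26%) and 4998 of 27025 genes with a window (18.5%). The core is also part of CACGTG, which other factors bind, and these counts include such matches. Pgk1 measured 820.3, 696, 872, 779, 695 and 206 CPM with P3C and 56.5 to 463 CPM without (1.86 ± 0.33, adjusted p = 7.3e-05), with replicate 6 inside the untreated range. Pgam1 measured 2361, 2207, 2345, 2338, 2105 and 1669 CPM against 410.4 to 1879 CPM (1.55 ± 0.18, adjusted p = 3.4e-08); 1 untreated culture was above replicate 6.

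**Figure D3:**
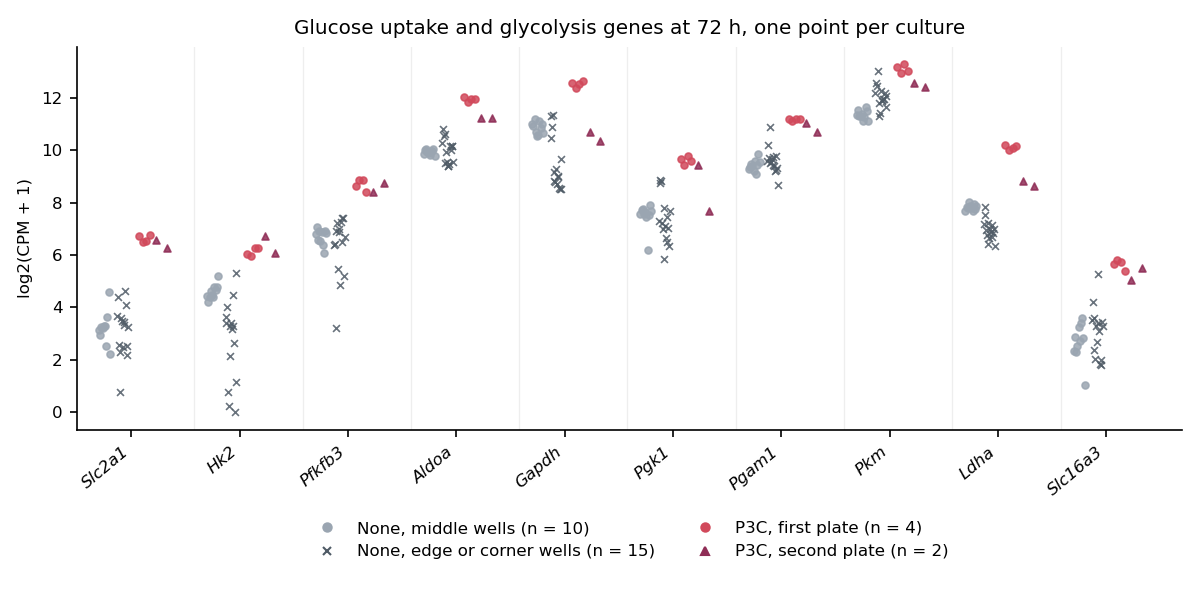
Level of 10 genes of glucose uptake, glycolysis and lactate export at 72 h as log2(CPM + 1), one point per culture. The first-plate P3C cultures lie above all untreated cultures of the middle wells for each gene, and the second-plate P3C cultures lie lower than those of the first plate for Aldoa, Gapdh, Pgk1, Pgam1, Pkm and Ldha.

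Of 9 genes of nitric oxide, arginine and itaconate metabolism 5 rose. Nos2, inducible nitric oxide synthase, measured 59, 64.6, 55.5, 105, 1.27 and 21.9 CPM with P3C and 0 to 13.8 CPM without (3.59 ± 0.75, adjusted p = 0.0008); it was listed at 0 in 13 of the 15 edge or corner wells and at 7.77 to 13.8 CPM in untreated middle wells, and P3C replicate 5 lay below all of the latter. Irg1, the enzyme that makes itaconate, measured 61.5, 43.7, 58.2, 53.7, 81.4 and 2.95 CPM against 0 to 15.2 CPM (3.59 ± 0.55, adjusted p = 8.3e-06), with replicate 6 inside the untreated range. The arginine transporter Slc7a2 (2.11, adjusted p = 0.02) and Gch1 (1.87, adjusted p = 0.011), which makes the cofactor of nitric oxide synthase, rose too, whereas arginase Arg1 did not pass (-0.38, adjusted p = 0.81). In the prostaglandin pathway 3 of 16 rose and 1 fell: beside Ptgs2, the prostaglandin E synthase Ptges was at 33.2 to 75.7 against 0.0695 to 32.4 CPM (3.34 ± 0.52, adjusted p = 1.1e-05), and the constitutive cyclooxygenase Ptgs1 fell (-2.30 ± 0.61, adjusted p = 0.0085). Hcar2, a receptor for nicotinic acid and ketone bodies, measured 14.5 to 24.2 CPM against 0 to 3.71 CPM (3.64 ± 0.40, adjusted p = 9.3e-09).

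Antioxidant genes depended on the wells compared. In all 22 tested genes of the list 5 rose, and against the middle wells 12 of 21 rose, with none lower in either. Slc7a11, the cystine importer, measured 284, 242, 262, 338, 567 and 524 CPM against 7.88 to 251 CPM (3.22 ± 0.58, adjusted p = 9.8e-05); untreated middle wells held 7.88 to 17.3 CPM. Sod2, the mitochondrial superoxide dismutase, was at 537 to 761 against 37 to 188 CPM (2.65 ± 0.23, adjusted p = 3.2e-11). Hmox1, heme oxygenase, measured 6060.1, 7247, 6572, 6122, 1207 and 1602 CPM against 958 to 3701 CPM (1.35 ± 0.30, adjusted p = 0.0012): its difference was 2.55 within the first plate and -0.95 within the second. Gclm, the modifier subunit of glutathione synthesis, gave 0.04, adjusted p = 0.99 over all wells and 2.43, adjusted p = 3.4e-11 against the middle wells, where untreated cultures held 243 to 366 CPM and P3C 1286 to 2242. Among 12 genes of metals and iron 4 rose, Lcn2, the iron importer Slc11a2 (1.56), the ferritin chain Fth1 (1.21) and Hcar2, which is no metal gene. The 1 that fell was the iron exporter Slc40a1 (ferroportin), at 73.9 to 144 against 39.3 to 2333 CPM (-2.92 ± 0.46, adjusted p = 1.3e-05).

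The stress response to amino acid shortage and unfolded protein rose in 8 of 21 genes with none lower (median 1.12), and against the middle wells in 10, with 1 lower. Atf4, the transcription factor of that response, measured 628, 833, 803, 513, 565 and 598 CPM against 59.2 to 342 CPM (2.23 ± 0.25, adjusted p = 1.2e-08). Trib3, a pseudokinase target of ATF4, measured 112, 89.9, 85.7, 93.4, 46.8 and 85.3 CPM against 0 to 20.7 CPM (4.36 ± 0.53, adjusted p = 7.8e-08). No untreated culture reached P3C for either. Asns, asparagine synthetase, gave 2.35 ± 0.36, adjusted p = 8.6e-06, and Ddit3 (CHOP) 1.99 ± 0.42, adjusted p = 0.00091. Hspa5 (BiP), the main chaperone of the endoplasmic reticulum, did not pass (0.67, adjusted p = 0.22) and against the middle wells was -0.28; Atf3 did not pass (-0.36, adjusted p = 0.47).

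Genes of the disease-associated microglial state, a lipid-handling programme seen around amyloid plaques, fell in 14 of 20 tested genes with none higher (median -1.62), and in 15 against the middle wells. Apoe, the lipid carrier (chromosome 7: 19696109 to 19699188), measured 3014, 3596, 2391, 3847, 5108 and 4284 CPM against 14925 to 56911 CPM (median 36372), a log2 difference of -3.07 ± 0.30, adjusted p = 8.1e-10. Spp1, osteopontin, measured 54.7, 70.2, 55.5, 83, 87.6 and 47.3 CPM against 363 to 1038 CPM (-3.13 ± 0.20, adjusted p = 2.5e-14). The growth factor Igf1 was at 194 to 336 against 647 to 2235 CPM (-2.70 ± 0.19, adjusted p = 1.8e-13) and Gpnmb at 587 to 1551 against 2069 to 9497 CPM (-2.14 ± 0.22, adjusted p = 3.8e-09). None of these overlapped. The lysosomal proteases Ctsb (-1.45) and Ctsd (-1.70), the tetraspanin Cd9 (-1.72) and the integrin Itgax (-2.06) fell too. Lpl, lipoprotein lipase, did not pass over all wells (-1.13, adjusted p = 0.13) and was -2.05, adjusted p = 4.3e-11 against the middle wells, where untreated cultures held 8106 to 12356 CPM and P3C 2001 to 3040.2. Tyrobp, the adaptor of TREM2, fell by less than the minimum (-0.97, adjusted p = 1.1e-06).

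Homeostatic genes fell as well, in 7 of 17 with 1 higher (median -1.09), and in 12 of 16 with 1 higher against the middle wells. Csf1r, the receptor for the survival factor CSF1, was at 578 to 1600.0 against 618 to 5115 CPM (-1.30 ± 0.31, adjusted p = 0.0029). Cst3, cystatin C, fell without overlap (306 to 397 against 649 to 1372 CPM, log2 difference -1.58 ± 0.13, adjusted p = 2.4e-11). The riser was Fcrls, an Fc receptor-like protein of microglia, at 1295, 1005, 1137, 593, 1089 and 1482 CPM against 8.56 to 716 CPM (1.73 ± 0.53, adjusted p = 0.029), whose call was lost on leaving out any P3C culture but replicate 4; against the middle wells it was 1.16, adjusted p = 0.00036. P2ry12 (-1.09, adjusted p = 0.19; -2.19 and past the threshold against the middle wells), Tmem119 (-1.06, adjusted p = 0.29) and Sall1 (-0.72, adjusted p = 0.52) did not pass.

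Other lists were mixed. Over all wells 5.36% of all genes were higher and 3.34% lower, and against the middle wells 6.12% and 14.5%. Of 13 tested Toll-like receptors and TRIF-arm genes outside the TLR2 list 3 rose, among them Unc93b1 (1.20), the chaperone of the endosomal receptors, and the adaptor Ticam2 (2.23), and 1, Tlr13, fell. Of 19 interferon gamma targets and MHC class II genes 3 rose and 1 fell, with the costimulator Cd40 at 2.47 and Socs1 at 2.60. Among 12 LXR targets 3 rose, with the desaturase Scd2 at 1.88 and Ch25h, which makes 25-hydroxycholesterol, at 2.11, and Apoe fell. In cholesterol synthesis 1 of 22 rose, Mvd (1.86). Of 5 colony-stimulating factors and receptors 2 fell, Csf1r and Csf2rb2 (-2.67), and of 12 inflammasome genes Naip2 rose (1.14) and the ATP-gated channel gene P2rx7 fell (-1.98). Against the middle wells 3 of the 13 Toll-like receptor and TRIF-arm genes rose and 5 fell. Of the 19 interferon gamma and MHC class II genes 2 rose and 3 fell there, with a median of -0.72, against 0.76 over all wells. In cholesterol synthesis 1 rose and 4 fell there, and of LXR targets 3 rose and 3 fell. No cholesterol gene was called higher without replicate 6, and no inflammasome gene without replicate 5 or 6.

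In phagocytosis and Fc gamma receptors 7 of 15 genes fell and none rose. Fcgr3, the low-affinity receptor, was at 76.6 to 385 against 483 to 783 CPM (-1.42 ± 0.19, adjusted p = 8.6e-07). Axl, a receptor for apoptotic cells, was at 0.465 to 7.07 against 2.07 to 156 CPM (-2.99 ± 0.59, adjusted p = 0.00038), and its ligand Gas6 at 112 to 357 against 577 to 2297 CPM (-2.20 ± 0.26, adjusted p = 3.5e-08). Complement split: of 13 genes 4 rose and 5 fell. The initiator chains C1qa (-1.47 ± 0.30, adjusted p = 0.00057), C1qb (-1.54 ± 0.34, adjusted p = 0.0016) and C1qc (-2.17 ± 0.44, adjusted p = 0.00056) fell. C3, the central component, rose (18.1 to 56.2 CPM with P3C, 0 to 9.33 without, log2 difference 3.41 ± 0.51, adjusted p = 5.6e-06), factor B (Cfb) measured 5.43 to 53.3 against 0 to 14.3 CPM (2.83 ± 0.60, adjusted p = 0.00097), and Itgam, a chain of complement receptor 3, rose (347 to 547 CPM with P3C, 57.8 to 186 without, log2 difference 1.84 ± 0.20, adjusted p = 8.1e-09). Among metalloproteinases and their inhibitors 3 of 11 rose and 3 fell; Mmp9, gelatinase B, rose to 27.1 to 76 CPM against 0 to 13.7 CPM (4.39 ± 0.42, adjusted p = 3e-10), where Mmp12 fell.

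Type I interferon targets gave few calls. 1 of 28 tested genes rose, Rtp4, and none fell, beside 5.36% and 3.34% of all genes, with a median log2 difference of 0.42. Against the middle wells 3 of 26 fell and none rose, beside 14.5% and 6.12% of all genes. Rtp4 was at 40.02 to 123 against 2.41 to 146 CPM (1.56 ± 0.48, adjusted p = 0.027), and its call was lost without replicate 1, 2, 4 or 5 and against the middle wells. Ifit1 measured 49.5, 59.9, 33.5, 90.6, 88.7 and 3.11 CPM against 2.34 to 316 CPM (0.52, adjusted p = 0.72) and Irf7, the interferon-induced transcription factor, 107, 66.1, 47.7, 118, 24.9 and 14.3 against 3.60 to 185 CPM (0.64, adjusted p = 0.46). Ifit3 measured 89.1, 84.5, 73.5, 93.7, 16.1 and 8.22 CPM against 0.835 to 1538 CPM (-0.30, adjusted p = 0.88). The P3C cultures lay inside the untreated range for all of these. With the 3 untreated cultures under 2 M reads left out, among them the one high in Ifit3, 1 of 27 targets rose and none fell. Irf8, a lineage factor of microglia counted among the interferon gamma targets, fell (50.0 to 138 CPM with P3C, 129 to 768 without, log2 difference -2.03 ± 0.24, adjusted p = 7.6e-08).

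The result for cell cycle genes depended on the wells compared. Over all wells 1 of 27 tested genes, Pcna, the DNA polymerase clamp, fell (224 to 603 against 649.9 to 1654 CPM, log2 difference -1.33 ± 0.20, adjusted p = 6.6e-06), with a median of 0.03 and none higher. Against the middle wells 23 of 27 fell and none rose, beside 14.5% and 6.12% of all genes. With plate as a term 2 of 27 fell and none rose, with a median of -0.83. Mki67, the proliferation antigen Ki-67, lay at 2.12 to 6.41 CPM with P3C, at 12.6 to 48.5 CPM in untreated middle wells and at 0 to 6.14 CPM in untreated edge wells. Its log2 difference was 0.04 over all wells and -2.07, adjusted p = 7.4e-06 against the middle wells. The 27 ribosomal protein genes tested gave no call (median 0.29).

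The gene modules that the study built from its cultures, these among them, are not independent evidence of direction. In the module YE_turquoise 71 of 105 tested genes rose and none fell, and in YE_brown 44 of 53 rose and none fell. Lox, Ndrg1 and Raver2 belong to YE_brown, and Slc13a3, Saa3, Cp, Adm, Pim2 and Lcn2 to YE_turquoise. In CY_turquoise 30 of 37 rose and none fell. In TQ_magenta, which holds Mmp12, Emp1, Cd83, Htr2b, Trf, Spp1 and Apoe, 30 of 34 fell and none rose. BR_turquoise, a module of interferon targets, held 7 genes that rose and 6 that fell of 141, near the 5.36% and 3.34% of all genes. Against the middle wells 5 of its genes rose and 23 fell, beside 6.12% and 14.5% of all genes. Naaa, an acid amidase that the study singled out among its module genes, measured 7.01, 12.1, 17.7, 19.1, 3.25 and 2.33 CPM against 0 to 14.3 CPM and did not pass (1.48, adjusted p = 0.099).

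At 24 h the P3C cultures came from 2 other cell lots than at 72 h, so that duration and cell lot cannot be told apart. Well position differed too: 4 of the 6 P3C cultures of 24 h were edge or corner wells, and 30 of the 40 untreated ones were middle wells. The 3 P3C cultures of 1 of these lots held 1.595 to 3.06 M reads and 6668 to 7163 genes above 5 CPM. The part of well position and depth in the counts below was not tested. The difference between treated and untreated cultures was more positive at 72 h than at 24 h in 1590 of 12258 genes (13%) and more negative in 125 (1.02%). The median over all genes was -0.51 for the 24 h difference and 0.57 for the 72 h difference minus the 24 h one. Centring each culture on its median, which removes such a shift by construction, gave 536 and 556. Both differences use the untreated cultures of their own hour.

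The 5 largest positive changes by rule were Tmem176a, Sh2d3c, Ube2c, Cpq and Ccnb2, from 6.10 to 7.08 log2 units. Ube2c, a ubiquitin-conjugating enzyme of mitosis, and Ccnb2, a mitotic cyclin, did not pass the test against untreated cultures at 72 h (2.04, adjusted p = 0.35; 1.45, adjusted p = 0.57) and had log2 differences of -4.26 and -4.64 at 24 h. In untreated 72 h cultures Tmem176a, Ube2c, Cpq and Ccnb2 were -5.35, -6.11, -4.01 and -6.05 log2 units in edge minus middle wells, and the part of well position or plate in these changes was not tested. Sh2d3c, an SH2-domain adaptor protein, measured 370.2, 249, 388, 334, 392 and 172 CPM with P3C at 72 h against 0 to 119.8 untreated and 2.35 to 18.3 CPM with P3C at 24 h against 0 to 143 untreated (6.48 ± 0.87, adjusted p = 3.5e-08).

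The 5 largest negative changes by rule were H2-M2, Chil1, Cxcl5, Cxcl1 and Cxcl3. Cxcl1, Cxcl3 and Cxcl5 are neutrophil-attracting chemokines. Cxcl1 lay at 56.7 to 283 CPM with P3C at 24 h and at 0 to 8.65 CPM at 72 h (-3.50 ± 0.97, adjusted p = 0.008), Cxcl3 at 7.56 to 97.3 and 0 to 5.84 CPM (-3.26 ± 0.68, adjusted p = 0.00034), and Cxcl5 was listed at 0 in all 6 P3C and all 25 untreated cultures of 72 h against 0.636 to 47.6 CPM at 24 h (-3.52 ± 0.40, adjusted p = 2.5e-10). Chil1, a chitinase-like protein, lay at 3.33 to 75.3 CPM at 24 h and 0 to 0.304 CPM at 72 h (-4.37 ± 0.43, adjusted p = 2.6e-12), and the class I-like gene H2-M2 at 118 to 248 and 0 to 1.17 CPM (-5.59 ± 0.69, adjusted p = 3.2e-09). No P3C culture of 72 h reached the lowest one of 24 h for any of these 5 genes.

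Among the cytokines, Il1b had a log2 difference of 5.07 at 24 h and 2.16 at 72 h, a change of -2.91 ± 0.92, adjusted p = 0.022; the call was lost without replicate 6 of 72 h and, as for Cxcl1, Cxcl3 and Il10, at a pseudocount of 0.1. The calls of Cxcl1 and Il10 were also lost among middle wells alone. Il10 went the other way, from 2.53 to 4.79 (2.25 ± 0.57, adjusted p = 0.0035; with centring 1.61, adjusted p = 0.062), as did Il1rn, from 0.20 to 3.29 (3.09 ± 0.62, adjusted p = 0.00025), and Ccl2, from 0.29 to 3.80 (3.50 ± 0.90, adjusted p = 0.004). For Tnf the 2 differences, 3.23 and 5.05, did not pass the test of their difference (1.82 ± 0.73, adjusted p = 0.079). Of the 21 glycolysis genes 6 were more positive at 72 h than at 24 h and none more negative, beside the 13% and 1.02% of all genes, and the list's median log2 difference was 0.45 at 24 h and 1.55 at 72 h. Examples chosen after their values were seen were Ldha, with -0.06 at 24 h and 2.34 at 72 h (2.40 ± 0.32, adjusted p = 2.5e-08), Pgam1 -0.05 and 1.55 (1.61 ± 0.26, adjusted p = 6.2e-06), and Pfkfb3 -0.53 and 2.19 (2.72 ± 0.52, adjusted p = 9.7e-05). With centring the changes of Ldha, Pgam1 and Pfkfb3 were 1.76, 0.97 and 2.08. Nos2 (-1.09 at 24 h, 3.59 at 72 h; 4.67 ± 0.98, adjusted p = 0.00038) had differences of opposite sign at the 2 times. Fcrls was at 6.90 to 84 CPM with P3C at 24 h against 153 to 1692 untreated, and at 593 to 1482 against 8.56 to 716 CPM at 72 h (5.47 ± 0.66, adjusted p = 1.5e-09). Of 21 genes of the disease-associated list 5 were more positive and 1, Apoe, more negative at 72 h than at 24 h, and the list's median log2 difference was -2.44 at 24 h and -1.62 at 72 h. Apoe lay further below untreated at 72 h than at 24 h (-0.95 and -3.07; -2.12 ± 0.41, adjusted p = 0.00012).

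**Figure D4:**
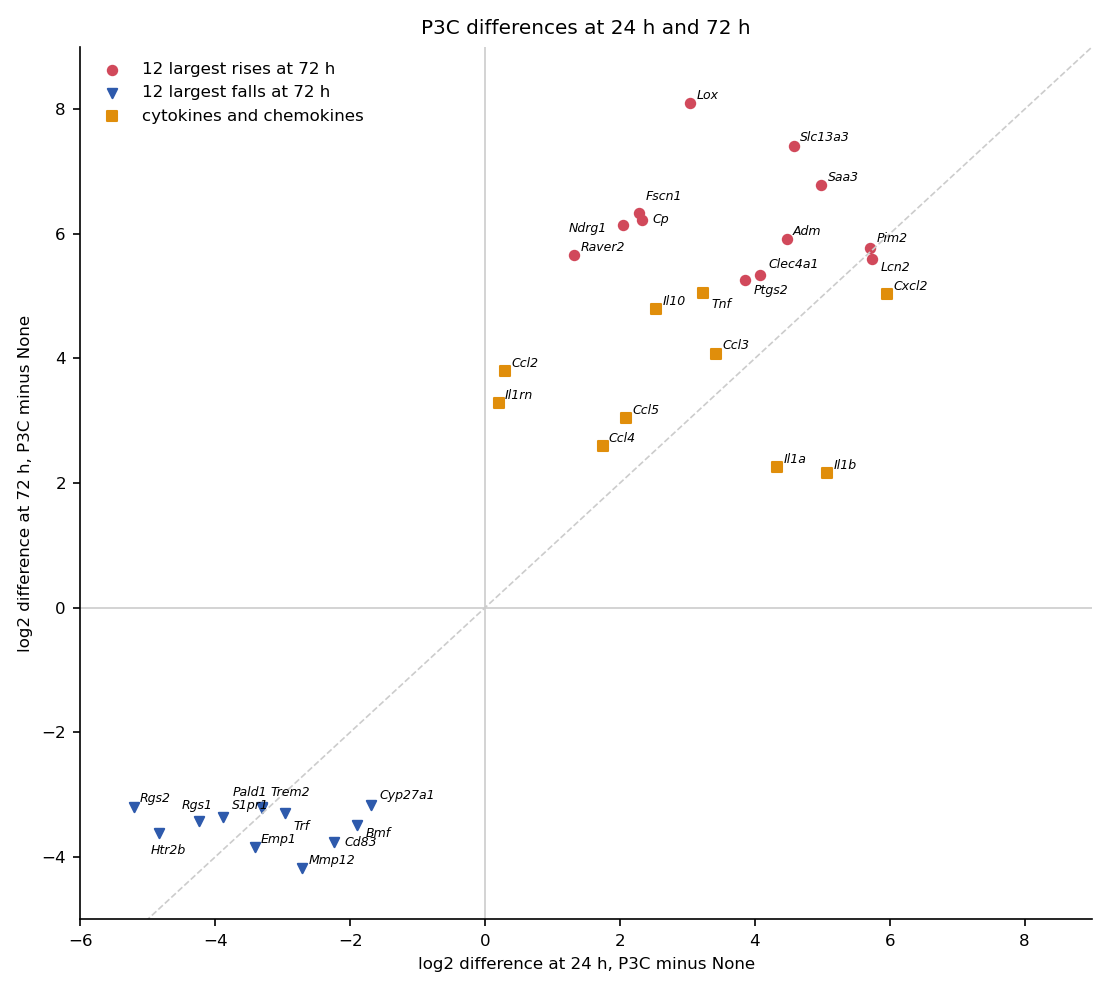
Log2 difference of P3C minus None at 24 h (horizontal) against that at 72 h (vertical), with the dashed line marking equal differences. The genes are the 12 largest rises and 12 largest falls at 72 h and a set of cytokines and chemokines. Genes not tested at both times are not drawn. The points chosen for their 72 h differences lie far from 0 on the vertical axis by construction. Il1a and Il1b lie below the line, and Ccl2 and Il1rn sit near 0 at 24 h.

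Against LPS_hi at 72 h, 335 of 9774 genes (3.43%) were higher and 130 (1.33%) lower with P3C. The median of all genes was 0.40 log2 units, centring gave 179 and 213 genes, and plate as a term 92 and 112. 10 of the 13 LPS_hi cultures were edge or corner wells and the 3 middle wells were on a plate with no P3C, so that ligand and well position cannot be told apart within a plate. Leaving out P3C replicate 1, 2, 3 or 4 gave 192, 187, 171 and 168 higher genes. The 5 genes highest relative to LPS_hi by rule were Tmem176a, Ndrg1, Tmem176b, Scd2 and Plxna3. Of these, Tmem176a, Tmem176b and Plxna3 were also -5.35, -4.29 and -3.28 log2 units in untreated edge minus middle wells. Ndrg1 was at 177 to 575 CPM with P3C and 0 to 50.4 CPM with LPS_hi (5.73 ± 0.66, adjusted p = 2.2e-06), and Scd2, a stearoyl-CoA desaturase, at 58.1 to 149 and 0 to 15.2 CPM (4.78 ± 0.60, adjusted p = 7.8e-06).

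The interferon targets differed between the P3C and LPS_hi cultures, which also differed in well position and in dose. Of 30 tested targets 27 were lower with P3C than with LPS_hi and none higher, with a median log2 difference of -2.82. The 5 genes furthest below LPS_hi by rule were Oasl1, Slfn4, Slfn1, Pyhin1 and Irf7. Oasl1, an interferon-induced inhibitor of Irf7 translation, lay at 16.7, 12.3, 12.6, 15.9, 1.69 and 1.24 CPM with P3C and 178 to 952 CPM with LPS_hi (-5.98 ± 0.43, adjusted p = 2.5e-09), and Irf7 at 14.3 to 118 and 886 to 2539 CPM (-4.73 ± 0.36, adjusted p = 4e-09). No P3C culture reached the lowest LPS_hi culture for Oasl1 or Irf7, and the differences within the first and second plate were -5.32 and -7.27 for Oasl1 and -3.72 and -5.65 for Irf7. Ccl5 was lower with P3C (760.3 to 1669 against 2790.2 to 12237 CPM; -2.39 ± 0.30, adjusted p = 8.7e-06), as were Il1b (3.10 to 22.2 against 32.8 to 563 CPM; -2.96 ± 0.58, adjusted p = 0.0021, a call lost among middle wells alone) and Il1a (-2.40 ± 0.70, adjusted p = 0.043). Tnf was higher (797 to 1214 against 85.8 to 763 CPM; 1.44 ± 0.40, adjusted p = 0.034), a call lost with centring (adjusted p = 0.11), with plate as a term (adjusted p = 0.53) and without P3C replicate 1, 2, 3, 4 or 5. Genes of the TLR2 pathway did not pass in either direction for Nfkbia (0.02 ± 0.28, adjusted p = 0.98) or Irak3 (0.02 ± 0.40, adjusted p = 0.99), a miss that does not show equal levels. Of 20 glycolysis genes 7 were higher with P3C than with LPS_hi and none lower, Ldha by 1.93 ± 0.29, adjusted p = 7.3e-05. Lox (4.18 ± 0.44, adjusted p = 6.4e-07), Marco (2.22 ± 0.40, adjusted p = 0.001) and Fcrls (2.71 ± 0.38, adjusted p = 3.6e-05) were higher with P3C as well, and their within-plate differences were 4.25 and 4.25, 1.27 and 3.48, and 3.48 and 3.46.

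**Figure D5:**
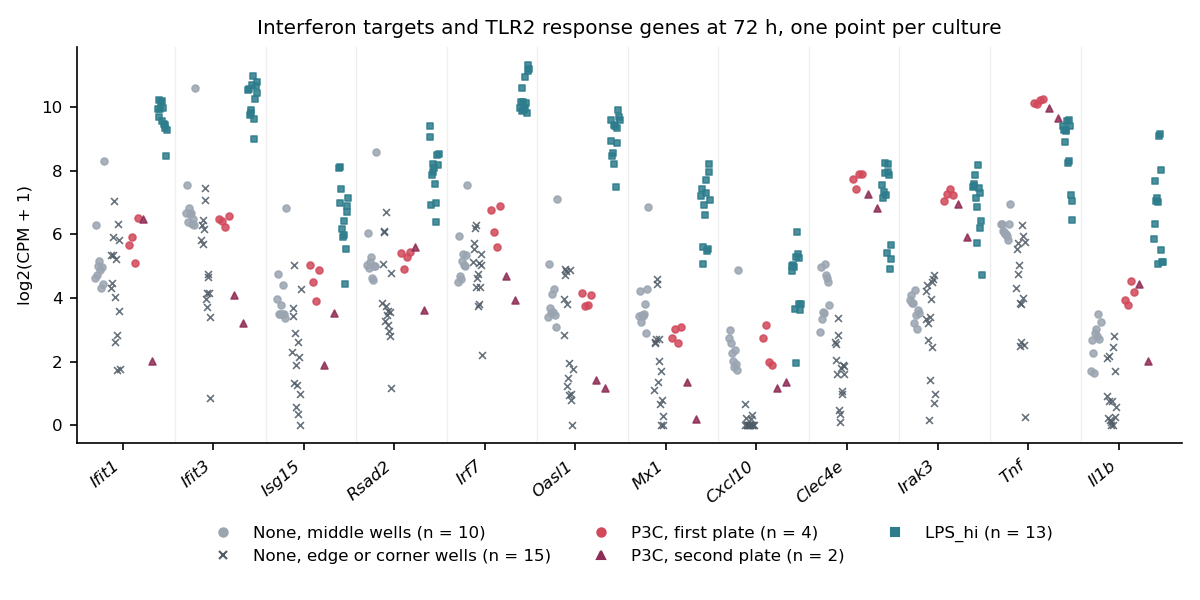
Level of 8 interferon targets and of Clec4e, Irak3, Tnf and Il1b at 72 h as log2(CPM + 1), one point per culture, for untreated, P3C and LPS_hi cultures. For Ifit1, Ifit3, Rsad2, Irf7, Oasl1 and Mx1 the P3C cultures lie among the untreated ones and below all LPS_hi cultures, while for Clec4e, Irak3 and Tnf they lie above the untreated cultures.

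Of 100 markers of 11 other cell types 26 passed the filter on low values. Of these 3 were called higher and 2 lower, both a larger share than the 5.36% and 3.34% of all genes. A marker can pass that filter through only the group where it is high, as Cd209f did below, so these shares test nothing. No T cell, B cell or erythrocyte marker passed the filter. The summed level of 11 neutrophil markers was 14.3 to 29.98 CPM with P3C and 4.34 to 156 CPM without, that of 10 astrocyte markers 6.04 to 47.2 and 3.50 to 89.4 CPM, and that of 13 markers of monocytes and macrophages outside the brain 511 to 613 and 310.1 to 1186 CPM. In that last list Cd209f was called higher and Mrc1 lower. Cd209f measured 36.4, 0, 22.2, 7.14, 0 and 9.0 CPM and was listed at 0 in 2 P3C cultures. It passed the filter through P3C cultures alone, and without replicate 6 it was not tested. Tubb3, a neuronal tubulin, rose (8.57, 8.22, 15.5, 9.16, 0 and 0 CPM, log2 difference 2.09 ± 0.42, adjusted p = 0.0005) and was listed at 0 in both second-plate cultures. Of the endothelial markers Pecam1 rose (1.11 ± 0.23, adjusted p = 0.00059), a call lost without replicate 6, and Flt1 fell (-2.17 ± 0.42, adjusted p = 0.00026).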

How the data were processed

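The deposited table of the in vitro cultures holds 1 value per gene and culture. The deposited values are CPM (reads of a gene scaled to one fixed total of mapped reads per culture). To make them, the authors quantified 3′-end RNA reads with Salmon 0.7.1, summed the reads over each gene and scaled every culture to one total. The study names the unit TPM, but no length correction entered it. The labels name genome build mm8 and the study an Ensembl gene set. Replicates were numbered here in accession order. Depth was estimated from the steps between low values and ran from 1.09 to 19.0 M reads over the cultures used, and whole reads could not be recovered for enough values for a count test. Low values (a few reads per culture) are imprecise, and no counting interval was computed.

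Genes with more than 5 CPM in at least 4 cultures of a comparison were tested on log2(CPM + 1) with limma 3.58.1 in R 4.3.3 (trended empirical Bayes, Benjamini-Hochberg adjustment over all genes tested) and called at an adjusted p under 0.05 and a log2 difference of at least 1. The time comparison is (P3C minus None at 72 h) minus the same at 24 h. The scripts were checked on simulated data. Named genes were the 12 largest rises and falls (5 for the other comparisons) among called genes with a mean of at least 10 CPM, plus members of gene lists. Predicted, clone-named, ribosomal protein, mitochondrial and pseudogene-style symbols were left out before the largest changes were taken. For P3C against None and against LPS_hi, no overlap between groups and 1 sign in every plate with both groups were also required. For 72 h against 24 h neither was required. The members, lists and tests were chosen with earlier results of these data known. Coordinates are from GENCODE on GRCm38. Windows of up to 250 bases upstream came from RefSeq (GRCm38.p6) and stop at or, where GENCODE starts the gene earlier, before the start site. Some results are not reported here. Alternatives were pseudocount, filter, centring, plate or pool as a term, subsets of wells, array weights, a joint fit, and rank-sum tests.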

Additional observations from a re-analysis of the deposited data

Results flagged for a closer look

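The 6 P3C cultures of 72 h were examined for a single culture far from the other 5 (Dixon's test at the 95% level) in 147 named genes, and 23 were marked. Chance alone marks about 1 in 20 such groups. Replicate 6, on the second plate, was the far culture for 14 genes and replicate 5, on the same plate, for 8. Replicate 5 was low in Il10 (6.92 CPM), Il1rn (6.99), Cd274 (25.1), Raver2 (31.6), Trib3 (46.8) and Ak4 (4.66), and high in Sod2 (761 CPM) and Asns (121). Replicate 6 was low in Il1b, at 3.10 CPM, and in Tnfaip3 (1.71), Irak3 (58.6), Myd88 (21.4), Tlr13 (20.6) and Irg1 (2.95). It was also low in Lcn2 (354 CPM), Pgk1 (206), Pgam1 (1669), Car9 (0.162), Ifit1 (3.11) and Rsad2 (11.4), and high in Clec4a2 (964) and Tyrobp (728). Replicate 1 had the lowest Hif1a, at 195 CPM. All but the last of these genes thus had their far culture on the second plate, whose cultures correlated with one another at r = 0.74, the lowest of the 15 pairs. The cause was not tested.

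The P3C difference changed between 24 h and 72 h, by the test of the difference itself (limma, adjusted p under 0.05), in the 10 genes named by rule: Tmem176a (7.08 log2 units, 72 h minus 24 h), Sh2d3c (6.48), Ube2c (6.30), Cpq (6.22), Ccnb2 (6.10), H2-M2 (-5.59), Chil1 (-4.37), Cxcl5 (-3.52), Cxcl1 (-3.50) and Cxcl3 (-3.26). It also changed in genes chosen after their values were seen. Il1b (-2.91) and Apoe (-2.12) moved down. Il10 (2.25), Ldha (2.40), Il1rn (3.09), Ccl2 (3.50), Nos2 (4.67) and Fcrls (5.47) moved up. Duration and cell lot cannot be told apart in any of these, and the well positions of the groups also differed between the times.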

How the results depend on the processing

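For P3C against None, genes higher and lower numbered 476 to 527 and 291 to 355 without 1 P3C culture, and other settings kept both counts within 1.5 times the reported ones except as follows. The falls rose to 630 with plate as a term and 943 with array weights, and, in subsets chosen after seeing the data, to 1458 with middle wells only and 1000 with only the 2 pools that held both groups. The plate with separate pools alone (chosen after seeing the data) gave 94 higher and 171 lower. The exact two-sided rank-sum test with Bonferroni correction gave 201 and 55. For 72 h against 24 h the counts, more positive and more negative, were 536 and 556 with centring, 81 and 32 with library pool as a term, and 497 and 75 on plates with both groups. Leaving out the untreated edge wells, a setting added later, gave 889 more positive, and the more negative ones were 637 with array weights and 417 in middle wells. Leaving out 1 P3C culture gave 1320 to 1724 and 110 to 118. Against LPS_hi, pseudocount 0.1 gave 182 genes higher, plate as a term 92, plates with both groups 155 and a single fit of 5 groups 1079. Genes higher and lower were 179 and 213 with centring, 15 and 59 with pool as a term, 950 and 244 with array weights, and 2015 and 466 in middle wells. Leaving out 1 P3C culture gave 168 to 279 higher and 103 to 112 lower. The cause was not tested for any of these. Of 150 named genes tested against None, plate as a term left 143 on the same side of the threshold, pseudocount 0.1 147 and centring 147, and middle wells 135 of 148; Mki67 turned from 0.04 to -2.07 there. Middle wells also ended the calls of Tlr2, Cd14, Nfkb2, Ccl4, Ccl9, Cd36 and Rtp4 and made those of Gclm, Lpl, P2ry12, Mx1 and Zfp36. Between the times, Cxcl1, Cxcl3, Il1b and Il10 lost their calls at pseudocount 0.1 and Cxcl1 and Il10 in middle wells, and against LPS_hi Il1b did in middle wells. Low genes limit these calls, since near 1 CPM the log2 scale depends on the pseudocount. A test of counts was not run because whole reads were not recovered. No paired analysis was possible because the labels give no replicate numbers that pair cultures across groups. Plate and pool as terms, given above, are the nearest to it.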

Other observations

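A few genes outside the lists of the report are given here as values. All but Car9 were chosen because they rose, and no list was fixed for them, so they say nothing of a pathway. Ero1l, an oxidase of the endoplasmic reticulum that forms disulphide bonds, measured 929, 866, 1036, 964, 1023 and 706 CPM with P3C at 72 h and 1.67 to 59.4 CPM without (log2 difference 5.24 ± 0.36, adjusted p = 1.9e-13 by limma). It stayed as large within plates, at 5.27 on the first and 5.28 on the second, and every P3C culture was above every untreated one. Ak4, a mitochondrial adenylate kinase, measured 74.4, 61.3, 71.5, 50.1, 4.66 and 56 CPM against 0 to 3.60 CPM (5.06 ± 0.39, adjusted p = 1.8e-12). Bnip3, a mitophagy receptor, measured 289, 279, 351, 251, 372 and 247 CPM against 23.3 to 118 CPM (2.48 ± 0.27, adjusted p = 1e-08). Neither overlapped the untreated range, although replicate 5 came near it for Ak4. Egln3, a prolyl hydroxylase, was at 3.72 to 79.3 CPM with P3C (4.47 ± 0.47, adjusted p = 3.3e-09), and Vegfa, the vascular growth factor, at 15 to 51.6 CPM (3.67 ± 0.52, adjusted p = 1.5e-06), both with 1 or more P3C cultures inside the untreated range. At 24 h the log2 differences of Ero1l, Ak4, Bnip3, Egln3 and Vegfa were 1.43, 0.65, -0.36, -0.03 and 1.59. Car9, a carbonic anhydrase, did not pass at 72 h (26.9, 43.9, 30.4, 30.2, 51.4 and 0.162 CPM against 0.209 to 85.3 CPM; 0.17, adjusted p = 0.94).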
